A study of Mus musculus with 6 samples.

Results

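Glycolysis, glucose uptake and the pathways that branch from them were followed through 42 genes chosen by symbol, of which 41 had a row among the 19730 rows of the expression table. Slc2a4, the insulin-responsive glucose transporter, was not analysed here. The RNA came from primary cultures of mouse mesangial cells, which hold up the capillary loops of the glomerulus and can contract, at passages 3 to 6. The Control group (n = 3 libraries) and the TGF-β1 group (n = 3 libraries, 10 ng/ml for 72 h) shared DMEM with 25.5 mM glucose and 20% fetal bovine serum, so every library came from glucose-rich medium. Genotype, strain and animal age were not given in the sources used here, nor whether the libraries of a group came from separate cultures, so the p-values measure only the spread between these samples. TGF-β1, transforming growth factor beta 1, is a secreted protein known for its part in glomerular scarring.

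Glycolysis turns glucose into pyruvate in the cytosol and yields ATP and NADH. Pyruvate either enters the mitochondrion through the pyruvate dehydrogenase complex or is reduced to lactate, which regenerates the NAD needed to keep the pathway running. Side branches lead off sugar phosphates into the pentose phosphate pathway, which makes NADPH and ribose, and into the hexosamine pathway, which makes the sugar donor for protein glycosylation, while the polyol pathway takes up glucose itself; mesangial cells are known to take up glucose mainly through Slc2a1.

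Most of the glycolytic chain rose together in the TGF-β1 libraries, and several pairs of isoenzymes moved apart. Hk2, hexokinase 2, rose 8.17-fold, the glucose transporter Slc2a1 2.96-fold, Ldha, lactate dehydrogenase A, 2.62-fold and the lactate exporter Slc16a3 6.54-fold, while Ldhb, lactate dehydrogenase B, fell 8.75-fold and Eno2, enolase 2, 3.12-fold (ratios of mean FPKM, n = 3 and 3). None of the 5 pentose phosphate enzymes passed the test. FPKM is fragments per kilobase of transcript scaled to the mapped fragments of the library, so levels are set beside each other between genes per length. The rows of Tkt, Eno1, Gapdh, Pfkfb4 and Ldha match annotated transcripts of 391, 519, 565, 780 and 912 nt, shorter than the 3225, 2027, 1420, 3297 and 1766 nt of their coding transcripts. Those of Pfkfb1, Gfpt1 and Pfkfb2 are also shorter, at 914, 1200 and 3689 nt against 1872, 2286 and 4425 nt. Those of Txnip, Hk1 and Pfkfb3 are longer, at 2827, 4278 and 5072 nt against 1479, 3726 and 1815 nt. Smaller mismatches are found for Aldoa, Eno2, Gfpt2 and Hif1a. Which length the FPKM used is not given in the sources used here. The levels of all these genes and the shares they enter are therefore uncertain, while a fixed length cancels in a ratio between groups. Changes were tested with limma on log2(FPKM + 1), which understates the change of low genes, and a gene was called at an adjusted p under 0.05. In bulk RNA, fewer cells of a type and less RNA per cell cannot be told apart.

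Of the 41 genes, 38 reached a mean of 1 FPKM over the 6 libraries and were tested, and 26 were called (68.4%), where 48.1% of all 11898 tested rows were. Upward calls took 19 of the 38 (50%) beside 24.5% of all rows, and downward calls took 7 (18.4%) beside 23.6%. The counts of every list given below stand beside the same 24.5% and 23.6%. A rise of at least 1 log2 unit was called in 7 of the 38 genes, beside 6.56% of all rows. Such a fall was called in 2 of the 38, beside 7.38% of all rows. The libraries of the groups did not overlap in 28 of the 38 (73.7%), beside 59.4% of all rows. The median change was 0.35 log2 units, against −0.02 over all tested rows. Scaling every library to a common sum of protein-coding rows moved the median of all rows to −0.19. It moved the upward share of all calls from 50.9% to 33.7%. Under it 15 of the genes were called up and 9 down, where 2014 of all tested rows were called up and 3956 down.

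The 6 libraries held about 10.0 to 11.2 M mapped fragments (M for mega), as recovered from the step between low FPKM values, so that 1 FPKM over 2 kb stood for 18.0 to 20.1 fragments. TGF-β1 replicate 2 stood apart from the other TGF-β1 libraries in how its deviations from the group mean moved with transcript GC content. Spearman's rho across 10843 rows was −0.388 there, against 0.27 and 0.317 in replicates 1 and 3 (Control −0.0882 to 0.1). The deviations of a group cancel out within each row, so the values of its libraries depend on each other. Mesangial and pericyte markers summed to 955 to 1135 FPKM in Control and 3618 to 4300 in TGF-β1, nearly all of it Acta2, smooth muscle actin. Pdgfrb stood at 32.0 to 41.1 and 28.4 to 29.9 FPKM, and Itga8, Des and Thy1 were at or near 0. Cspg4 went from 0.0735 ± 0.0367 to 1.21 ± 0.257 FPKM and Gata3 from 1.76 ± 0.882 to 1.03 ± 0.211 FPKM, the latter not called. Macrophage markers summed to 87.0 to 114 FPKM in Control, of which Cd14 and Csf1r made up most, and to 9.03 to 11.3 in TGF-β1. The defining marker Ptprc was listed at 0 FPKM throughout the Control group, and Itgam and Lyz2 were at most 0.359 and 0.0811 FPKM. Cd68 stood at 2.79 ± 0.836 FPKM in Control and 2.22 ± 0.448 in TGF-β1 and was not called. The tubule sum was 10.9 to 14.5 against 1.79 to 2.40 FPKM, in Control mostly the water channel Aqp1, with Cdh1 at most 0.123, while the keratin Krt18 went from 0.279 ± 0.120 to 1.57 ± 0.219 FPKM. Of the podocyte markers, Synpo stood at 11.6 to 12.8 FPKM in Control and 7.34 to 8.47 in TGF-β1, and Nphs1 at most at 0.398. Endothelial markers summed to 0.361 to 0.468 against 0.299 to 0.822 FPKM. The part of these markers in the changes given here was not tested.

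**Figure D1:**
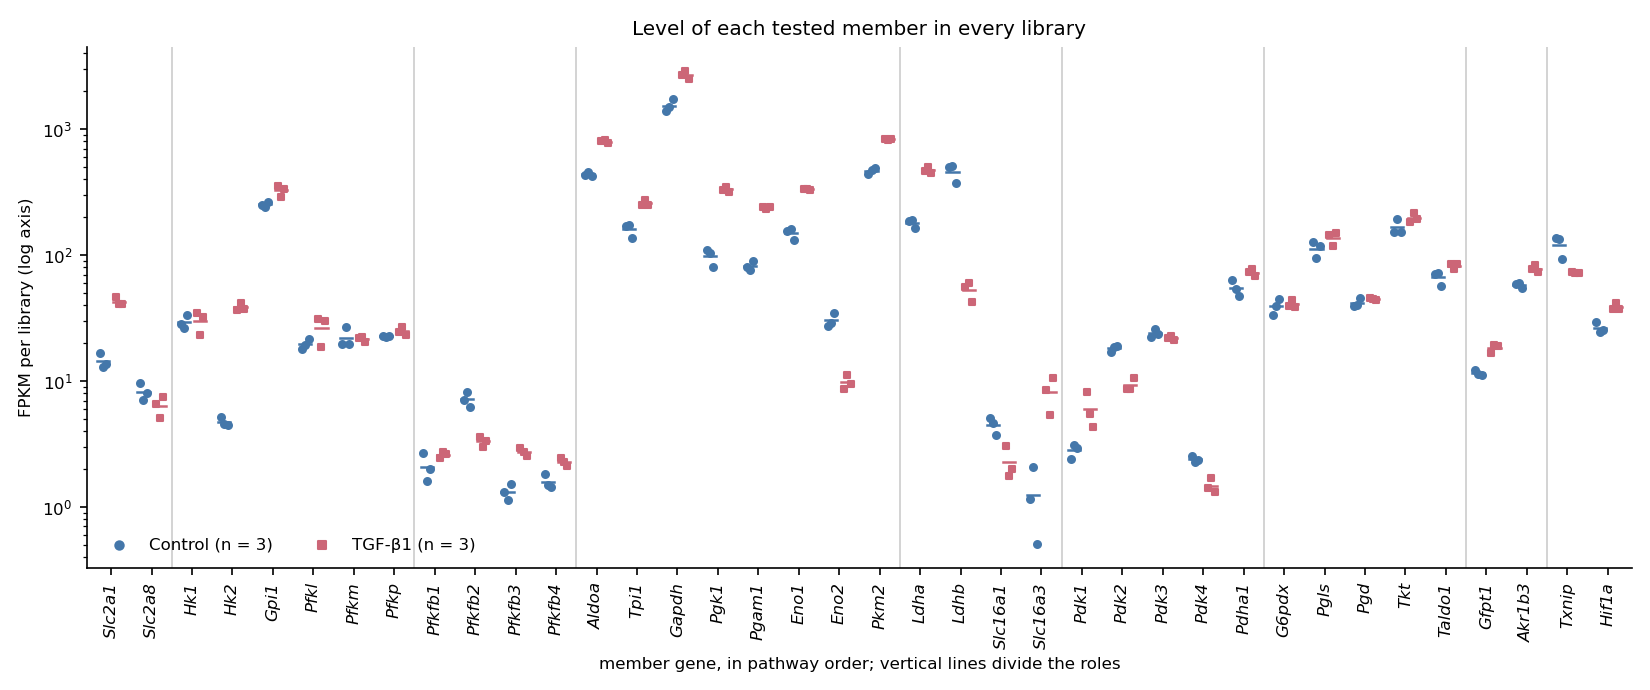
FPKM of the member genes in each of the 6 libraries on a log axis, with 1 point per library, Control and TGF-β1 coloured apart, genes ordered by role. Slc2a1, Hk2, Ldha and Slc16a3 lie higher and Ldhb and Eno2 lower in every TGF-β1 library than in any Control library.

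Glucose enters these cells through facilitative transporters, of which Slc2a1 (GLUT1, basal uptake) had the highest level. Slc2a1 (chr4, 118781316 to 118809935 in mm9, the build of all gene positions given) stood at 16.8, 12.96 and 13.7 FPKM in Control and at 46.7, 40.6 and 41.2 FPKM in TGF-β1. Every TGF-β1 library lay above every Control library, and the log2 change was 1.51 (SE 0.12, 95% CI 1.22 to 1.79, adjusted p = 1.91e-04). Slc2a8, an intracellular transporter, was at 8.23 ± 1.27 FPKM in Control and 6.38 ± 1.17 in TGF-β1 (SD, n = 3 each), with overlapping groups and a log2 change of −0.33 (95% CI −0.71 to 0.06, adjusted p = 0.136). It was called down under the common sum (−0.50, adjusted p = 0.0332) and with replicate 2 as a batch term (0.0487). Slc2a3, the high-affinity neuronal transporter, was at most 0.138 FPKM in any library, which is under 6 fragments, so that a difference was not detectable at this depth. Slc2a1 took 63.5% ± 0.913 of the summed FPKM of these transporters in Control and 86.9% ± 2.05 in TGF-β1. The exact two-sided permutation p was 0.1, the smallest that 3 against 3 libraries allow. Of 9 other genes of the Slc2a and Slc5a families looked at, not all of them glucose transporters, 1 passed the filter on low values: Slc2a10, known from arterial tortuosity. It went from 0.871 ± 0.0573 to 2.05 ± 0.410 FPKM (log2 change 0.70, adjusted p = 0.00729). It passed only through its TGF-β1 values, so its direction says nothing about the list. In the fit without that filter Slc2a13 was called up (0.199 to 0.723 FPKM, adjusted p = 0.0132). Slc2a2 was called down there (0.311 to 0 FPKM, adjusted p = 0.0142).

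The hexokinases trap glucose as its phosphate, and in FPKM they exchanged rank. Hk2 (chr6, 82675019 to 82724448), the inducible hexokinase of muscle and tumours, measured 5.16, 4.55 and 4.47 FPKM in Control and 37.0, 41.8 and 37.1 FPKM in TGF-β1. The groups lay far apart, and the log2 change of 2.79 (SE 0.09, 95% CI 2.57 to 3.01, adjusted p = 9.36e-06) was the highest upward value among the members. Hk1, the widely expressed hexokinase, measured 28.3, 26.2 and 33.7 FPKM in Control and 34.9, 23.2 and 32.6 FPKM in TGF-β1. Its groups overlapped, and its change of 0.03 (95% CI −0.40 to 0.45, adjusted p = 0.917) turned below 0 under common-sum and upper-quartile scaling. Hk2 therefore held 13.99% ± 1.98 of the summed hexokinase FPKM in Control and 56.35% ± 6.98 in TGF-β1 (exact two-sided permutation p = 0.1). The Hk1 to Hk2 ratio ran from 5.49 to 7.53 in Control libraries and from 0.554 to 0.945 in TGF-β1 libraries. The Hk1 row matches a transcript of 4278 nt, against 3726 nt for its coding transcript. Which of the pair was higher in the TGF-β1 libraries therefore depends on the length used, while the fall of the ratio does not.

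Further steps on the hexose phosphates moved less. Gpi1, glucose phosphate isomerase, was the most abundant gene of this stretch, at 249.9, 243 and 267 FPKM in Control and 352, 292 and 336 FPKM in TGF-β1. Every TGF-β1 library was higher, by 0.36 log2 units (SE 0.10, adjusted p = 0.0245). Its call was lost without Control replicate 1 (adjusted p = 0.065), Control replicate 2 (0.0721), TGF-β1 replicate 1 (0.0909) or TGF-β1 replicate 3 (0.0785), and under the common sum (0.212). The phosphofructokinases, which catalyse the committed step, were not called. Pfkl, the liver isoform, measured 18.1, 19.2 and 21.4 FPKM in Control and 31.2, 18.7 and 29.7 FPKM in TGF-β1, so that only TGF-β1 replicate 2 lay among the Control values. Its log2 change was 0.39 (95% CI −0.09 to 0.87, adjusted p = 0.153), and 0.62 without that library (adjusted p = 0.00735). Pfkm, the muscle isoform, changed by −0.02 (95% CI −0.34 to 0.31) and Pfkp, the platelet isoform, by 0.13 (95% CI −0.06 to 0.32), and the sign of each flipped under at least 1 scaling. The isoform shares of Pfkl, Pfkm and Pfkp differed with exact two-sided permutation p of 0.4, 0.3 and 0.8.

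The 4 Pfkfb genes encode bifunctional enzymes that make and remove the fructose bisphosphate activating phosphofructokinase, and Pfkfb2 and Pfkfb3 moved in opposite directions. Pfkfb2, the heart and kidney form, measured 7.01, 8.12 and 6.28 FPKM in Control and 3.61, 3.02 and 3.34 FPKM in TGF-β1, a fall in every library (log2 change −0.91, SE 0.12, adjusted p = 0.00134). Pfkfb3, the form with the strongest kinase bias, measured 1.30, 1.13 and 1.51 FPKM in Control and 2.96, 2.73 and 2.56 FPKM in TGF-β1. It rose 2.09-fold without overlap (log2 change 0.70, SE 0.12, adjusted p = 0.00381). Pfkfb2 thus went from 58.8% ± 6.06 of the summed Pfkfb FPKM to 30.3% ± 1.999 (exact two-sided permutation p = 0.1). Pfkfb4 stood at 1.58 ± 0.198 and 2.28 ± 0.185 FPKM (log2 change 0.35, adjusted p = 0.0476), a call lost in 13 of 17 alternatives that gave it a value, among them every library left out except Control replicate 1 (adjusted p 0.0641 to 0.128). Pfkfb1, the liver and muscle form, was not called (0.23, 95% CI −0.13 to 0.60, adjusted p = 0.253).

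**Figure D2:**
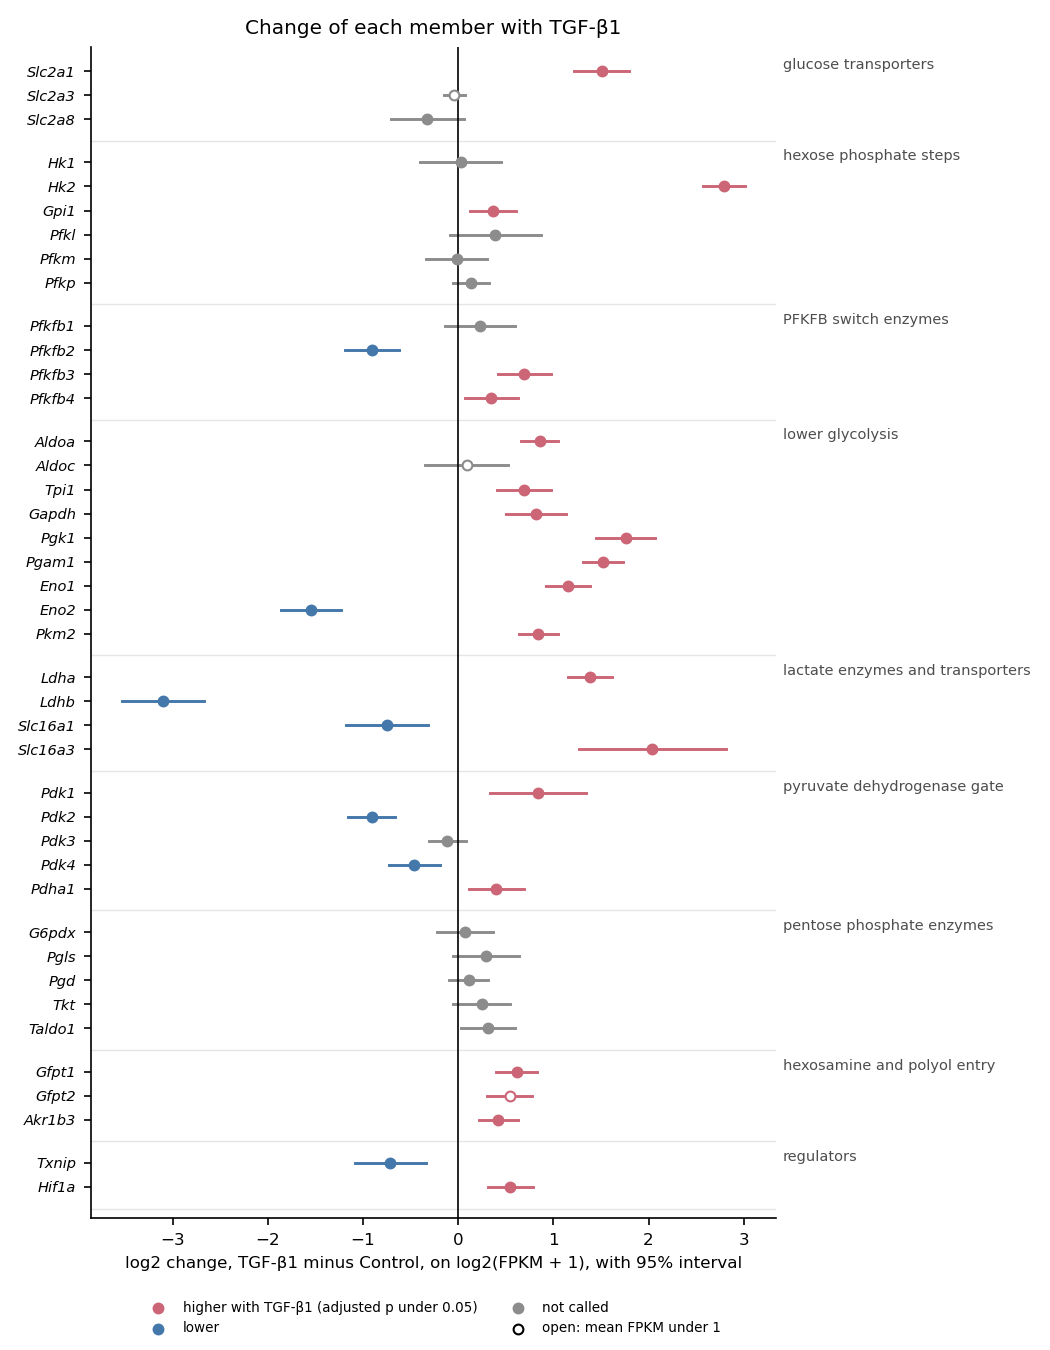
Log2 change of each member gene, TGF-β1 minus Control, on the log2(FPKM + 1) scale with its 95% confidence interval, genes ordered by role and coloured by call. Values run from −3.10 for Ldhb to 2.79 for Hk2, and every interval of the 5 pentose phosphate enzymes except that of Taldo1 (0.03 to 0.59) crosses 0.

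Lower glycolysis, from aldolase to pyruvate kinase, moved mostly upward. Of its 8 tested genes 7 rose and 1 fell, beside 24.5% and 23.6% of all tested rows. The median change of this stretch was 0.85 log2 units. Gapdh, glyceraldehyde phosphate dehydrogenase and a common reference gene, was the most abundant, at 1394, 1489.8 and 1748 FPKM in Control and 2679, 2919.6 and 2517 FPKM in TGF-β1. It rose 1.75-fold (log2 change 0.81, SE 0.13, adjusted p = 0.00316) with no overlap between groups. The genome holds 36 near-copies of the coding transcript of Gapdh at an identity of at least 90%, so its level is uncertain to the extent that reads were shared with them. Pgk1, phosphoglycerate kinase 1, which makes the first ATP of the payoff phase (chrX, 103382439 to 103399038), measured 109.5, 104 and 81.0 FPKM in Control and 329, 349.9 and 319.7 FPKM in TGF-β1. Its log2 change of 1.76 (SE 0.13, 95% CI 1.45 to 2.07, adjusted p = 1.48e-04) was the highest of the stretch. Pgam1, phosphoglycerate mutase 1 (chr19, 41986361 to 41993154), measured 80.8, 76.2 and 90.001 FPKM in Control and 239, 234 and 242 FPKM in TGF-β1, again with no overlap (log2 change 1.52, SE 0.09, adjusted p = 5.90e-05).

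The enolases, which make phosphoenolpyruvate, parted. Eno1, the widely expressed form (chr4, 149610830 to 149622988), measured 155, 162 and 132 FPKM in Control and 335, 334 and 332 FPKM in TGF-β1, where the 3 libraries nearly coincided. It rose by 1.15 log2 units (SE 0.10, adjusted p = 2.43e-04). Eno2, the neuronal form (chr6, 124710071 to 124719691), measured 27.3, 29.0 and 35.0 FPKM in Control and 8.68, 11.1 and 9.45 FPKM in TGF-β1. Every TGF-β1 library lay below every Control library (log2 change −1.55, SE 0.13, adjusted p = 2.38e-04), and the Eno2 share of the pair went from 17.02% ± 3.39 to 2.84% ± 0.353 (exact two-sided permutation p = 0.1). Aldoa, the muscle-type aldolase that splits the hexose, went from 440.3 ± 16.7 to 797 ± 23.4 FPKM (log2 change 0.86, SE 0.08). Tpi1, triose phosphate isomerase, went from 160.2 ± 20.5 to 258 ± 13.7 FPKM (0.69, SE 0.12), and the row Pkm2, muscle pyruvate kinase, from 467 ± 27.3 to 836 ± 7.55 FPKM (0.84, SE 0.09). None of these 3 overlapped between groups, and the row Pkm2 does not separate the splice forms of pyruvate kinase. Aldoc, the brain aldolase, was listed at 0.180 to 0.835 FPKM over all libraries and was not called (adjusted p = 0.737 in the fit without the filter on low values). Pgk1, Pgam1 and Eno1 each have 2 near-copies elsewhere in the genome.

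Lactate dehydrogenase is a tetramer of A and B chains, the A chain being known to favour lactate formation and the B chain its oxidation. Ldhb (chr6, 142438769 to 142456477) measured 497, 514 and 372 FPKM in Control and 55.7, 59.8 and 42.5 FPKM in TGF-β1. Ldha (chr7, 54096845 to 54110997) measured 187, 191 and 164 FPKM in Control and 465, 502 and 452 FPKM in TGF-β1. Ldhb was thus the more abundant in every Control library and Ldha in every TGF-β1 library. The log2 change was −3.10 for Ldhb (SE 0.18, 95% CI −3.54 to −2.67, adjusted p = 6.19e-05) and 1.38 for Ldha (SE 0.09, 95% CI 1.16 to 1.61, adjusted p = 1.14e-04). Ldhb has 1 near-copy elsewhere in the genome. The ratio of Ldha to Ldhb was 0.376, 0.371 and 0.441 in Control and 8.35, 8.38 and 10.6 in TGF-β1. Ldha held 28.35% ± 1.97 of the summed FPKM of the pair in Control and 90.01% ± 1.19 in TGF-β1, and the exact two-sided permutation p was 0.1.

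**Figure D3:**
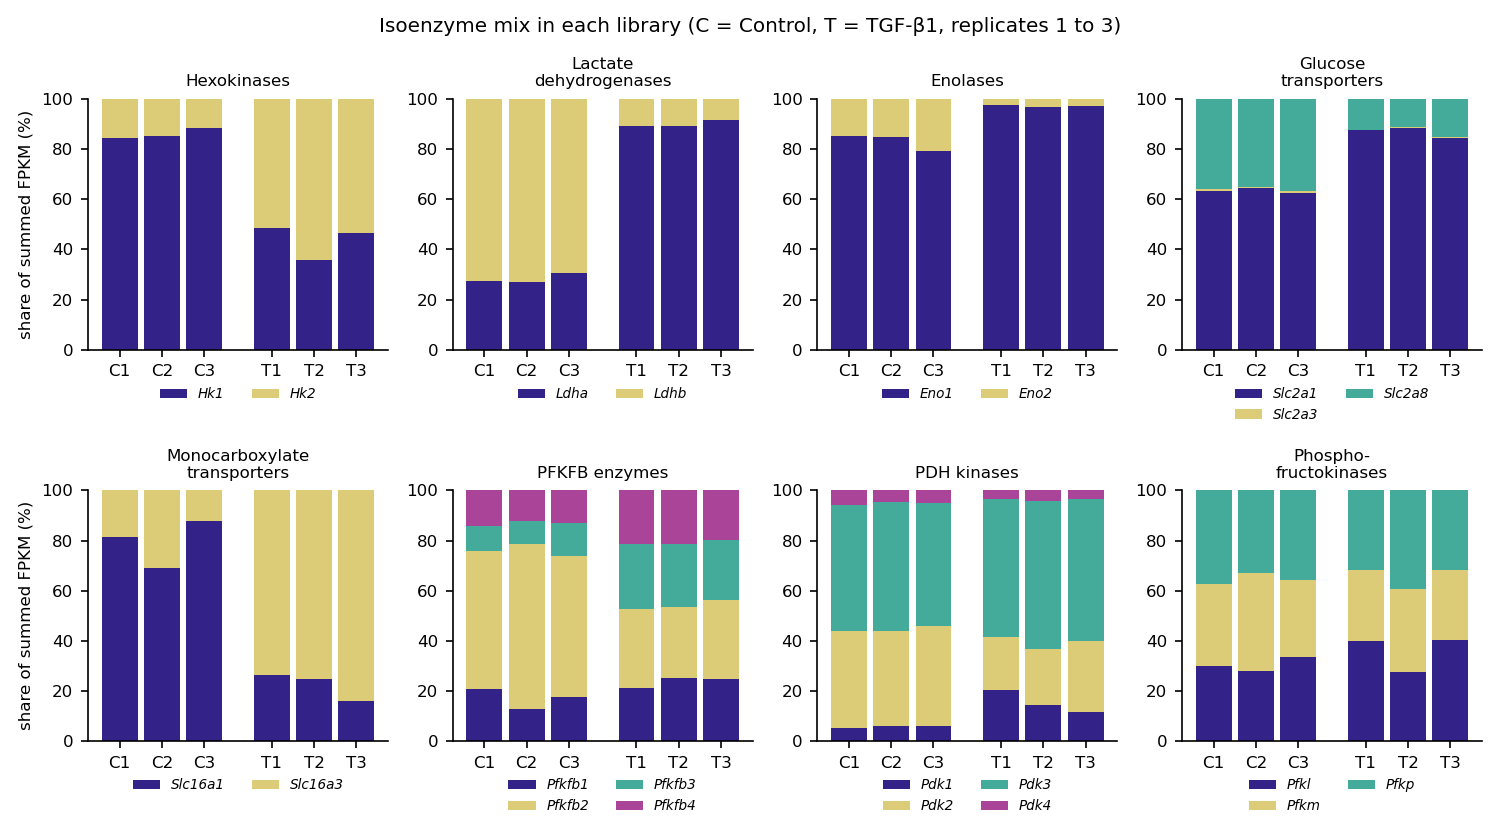
Share of the summed FPKM of an isoenzyme set held by each gene, in percent, with 1 stacked bar per library. Ldha goes from 27.1 to 30.6% in Control to 89.3 to 91.4% in TGF-β1, Hk2 from 11.7 to 15.4% to 51.4 to 64.3%, and the 3 phosphofructokinase shares overlap between groups.

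Lactate crosses the plasma membrane through the monocarboxylate transporters, and these were exchanged as well. Slc16a3 (MCT4, the exporter of glycolytic cells, chr11, 120809794 to 120822182) measured 1.15, 2.06 and 0.509 FPKM in Control and 8.51, 5.34 and 10.5 FPKM in TGF-β1. The groups did not overlap (log2 change 2.04, SE 0.32, 95% CI 1.26 to 2.82, adjusted p = 0.00296), though TGF-β1 replicate 2 lay 0.72 log2 units below the mean of the other TGF-β1 libraries. Slc16a1 (MCT1, chr3, 104442591 to 104462385), which carries lactate in either direction, measured 5.08, 4.61 and 3.71 FPKM in Control and 3.04, 1.78 and 2.01 FPKM in TGF-β1. Every TGF-β1 library was lower (log2 change −0.75, SE 0.18, adjusted p = 0.0151), and the call was lost without Control replicate 1 (adjusted p = 0.0513) or TGF-β1 replicate 3 (0.0520). The Slc16a3 share of the pair rose from 12.1 to 30.9% in Control to 73.7 to 83.9% in TGF-β1. Of 15 other genes of glycolysis and lactate handling 7 were tested, with 3 called up and 2 down. Of the 2 called down, Slc16a7 passed the filter only through its Control values (1.45 ± 0.153 against 0.635 ± 0.125 FPKM). The largest rise was that of 9630033F20Rik, the older symbol of Tigar, a fructose bisphosphatase-like enzyme, from 3.09 ± 0.622 to 5.41 ± 0.355 FPKM (log2 change 0.66, adjusted p = 0.00874). The largest fall was that of Ldhd, the mitochondrial D-lactate dehydrogenase, from 8.37 ± 0.342 to 2.59 ± 0.172 FPKM (−1.38, adjusted p = 8.74e-05). The gluconeogenic list gave 1 call in each direction among 3 tested: Pck2, mitochondrial phosphoenolpyruvate carboxykinase, rose from 14.2 ± 0.605 to 35.9 ± 0.912 FPKM (1.28, adjusted p = 5.58e-05), and Pcx, pyruvate carboxylase, fell from 2.41 ± 0.284 to 1.21 ± 0.428 FPKM (−0.64, adjusted p = 0.0249). The Pcx call was lost without Control replicate 1 (adjusted p = 0.0717), Control replicate 2 (0.0648) or TGF-β1 replicate 1 (0.0551).

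Many glycolytic genes are known targets of the hypoxia-inducible factor HIF, whose core letters are ACGTG, and since these genes moved together stretches that hold these letters are shown for 6 members that rose and, beside them, for members that fell and hold them too. RefSeq windows from 250 bases before to 50 after the start were held for 38 of the 42 symbols (GRCm38.p6; Slc2a3, Slc2a4, Pkm2 and Akr1b3 had no entry). The stretches below run 5′ to 3′ along the gene strand, with ACGTG, or CACGT where the letters lie on the other strand, in capitals. The first 6 are genes that rose and the next 3 genes that fell. In the stretches of Ldha, Slc16a1, Pfkfb2 and Pdk2 a C precedes ACGTG, so the letters form the palindrome CACGTG and lie on both strands. That holds for each of the genes shown that fell and, of those shown that rose, for Ldha alone.
Slc2a1 (chr4:119108699-119108723, plus strand): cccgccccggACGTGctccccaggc
Hk2 (chr6:82774492-82774516, minus strand): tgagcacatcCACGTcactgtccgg
Pgk1 (chrX:106186940-106186964, plus strand): gtcgtgcaggACGTGacaaatggaa
Pgam1 (chr19:41911747-41911771, plus strand): ctccttgcttACGTGcgctccgtga
Ldha (chr7:46845747-46845771, plus strand): cccagcctacACGTGggttcccgca
Slc16a3 (chr11:120949030-120949054, plus strand): ggcagcggtgACGTGcgcgggggac
Slc16a1 (chr3:104638455-104638479, plus strand): gcgccgggtcACGTGgcgggaaggg
Pfkfb2 (chr1:130715828-130715852, minus strand): caagcgccccACGTGactcgcccca
Pdk2 (chr11:95041482-95041506, minus strand): gaggagagccACGTGtcgaagcgca
Txnip (chr3:96557868-96557892, plus strand): tgtgCACGAGggctgCACGAGcctc

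Ldhb, Eno1 and Eno2, which changed by more than 1 log2 unit, hold no ACGTG in their windows. ACGTG, searched on both strands, was held by 21.8% of the 27025 genes in the table, and by 20 of the 38 member genes (52.6%). By call it was held by 11 of the 17 genes with a window that rose (64.7%), by 3 of the 7 that fell (42.9%) and by 4 of the 12 that were not called (33.3%), besides Aldoc and Gfpt2, which were under the filter on low values. The longer palindrome CACGTG, which contains ACGTG, was held by 8.09% of all genes and 7 members (18.4%), 3 of them among the genes that rose and 3 among those that fell. CAGAC, the letters bound by SMAD proteins downstream of TGF-β receptors, was held by 53.2% of all genes and 21 members (55.3%). The last stretch shows in capitals a pair of CACGNG boxes with 5 bases between them, the arrangement bound by the glucose sensors MondoA and ChREBP. That pair was held by 0.0555% of all genes and, among the members, by Txnip alone. A match describes letters and is not evidence of binding, and the shares were not tested against each other.

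The pyruvate dehydrogenase gate decides whether pyruvate enters the mitochondrion: the Pdk kinases switch the complex off, and Pdha1 is the catalytic subunit that they phosphorylate. Pdha1 had the highest level, at 63.6, 54.0 and 47.7 FPKM in Control and 72.9, 77.0 and 68.3 FPKM in TGF-β1. Its libraries did not overlap (log2 change 0.40, SE 0.12, adjusted p = 0.0333), but the call was lost in 10 of 18 alternatives, among them every library left out except Control replicate 1 (adjusted p 0.0583 to 0.0919). Pdk1, a kinase induced in low oxygen, measured 2.42, 3.11 and 2.96 FPKM in Control and 8.16, 5.52 and 4.33 FPKM in TGF-β1, a rise of 0.84 log2 units (SE 0.21, adjusted p = 0.0176; 0.060 without Control replicate 1). Pdk2, the widely expressed kinase, measured 17.1, 18.7 and 19.0 FPKM in Control and 8.63, 8.64 and 10.6 FPKM in TGF-β1. It fell 1.97-fold with no overlap (log2 change −0.91, SE 0.10, adjusted p = 7.74e-04). Pdk4, the starvation-induced kinase, fell from 2.40 ± 0.125 to 1.47 ± 0.188 FPKM (−0.46, adjusted p = 0.0161), and Pdk3 was not called (−0.12, 95% CI −0.31 to 0.08). The mean Pdk1 share of the summed Pdk FPKM went from 5.94 to 15.4% and that of Pdk2 from 38.5 to 24.0%. Among 9 tested carriers and further subunits of the complex 3 rose and 1 fell. The largest changes were those of its phosphatases, which switch it back on: Pdp2 rose from 1.91 ± 0.0289 to 3.61 ± 0.393 FPKM (log2 change 0.66) and Pdp1 fell from 8.49 ± 0.452 to 4.46 ± 0.607 FPKM (−0.80).

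The pentose phosphate enzymes showed no call in 5 tested. Tkt, transketolase of the non-oxidative arm, had the highest level, at 154, 195 and 153 FPKM in Control and 184, 215 and 194 FPKM in TGF-β1. Its groups overlapped through Control replicate 2 (log2 change 0.25, 95% CI −0.06 to 0.55, adjusted p = 0.150), and without that library the change was 0.36 (adjusted p = 0.0402). G6pdx, which catalyses the entry step and is the usual rate-limiting point, stood at 39.3 ± 5.67 and 41.0 ± 2.91 FPKM (0.07, 95% CI −0.23 to 0.36). Pgd, the other NADPH-forming enzyme of the pathway, stood at 41.9 ± 3.48 and 45.1 ± 0.937 FPKM (0.11, 95% CI −0.09 to 0.31), and both signs flipped under the common sum. Pgls, the lactonase between them, changed by 0.29 (95% CI −0.06 to 0.64, adjusted p = 0.143). Taldo1, transaldolase, measured 71.0, 72.3 and 56.4 FPKM in Control and 85.3, 77.3 and 84.7 FPKM in TGF-β1, which did not overlap but missed the threshold (0.31, 95% CI 0.03 to 0.59, adjusted p = 0.0673). The upper ends of the 5 intervals ran from 0.31 to 0.64 log2 units. With the GC trend of each library removed, an alternative chosen after the data were seen, Pgls (0.63, adjusted p = 0.0103), Taldo1 (0.38, 0.0240) and Tkt (0.33, 0.0492) were called up. With replicate 2 as a batch term Pgls (adjusted p = 0.0219) and Tkt (0.0446) were. Of 5 further tested genes of the pathway 1 rose and 1 fell: Rpe, ribulose phosphate epimerase, went from 8.64 ± 1.37 to 17.7 ± 0.936 FPKM (0.97, adjusted p = 0.00126), and H6pd, the dehydrogenase of the endoplasmic reticulum, from 35.0 ± 4.94 to 13.2 ± 0.706 FPKM (−1.34, adjusted p = 2.74e-04).

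**Figure D4:**
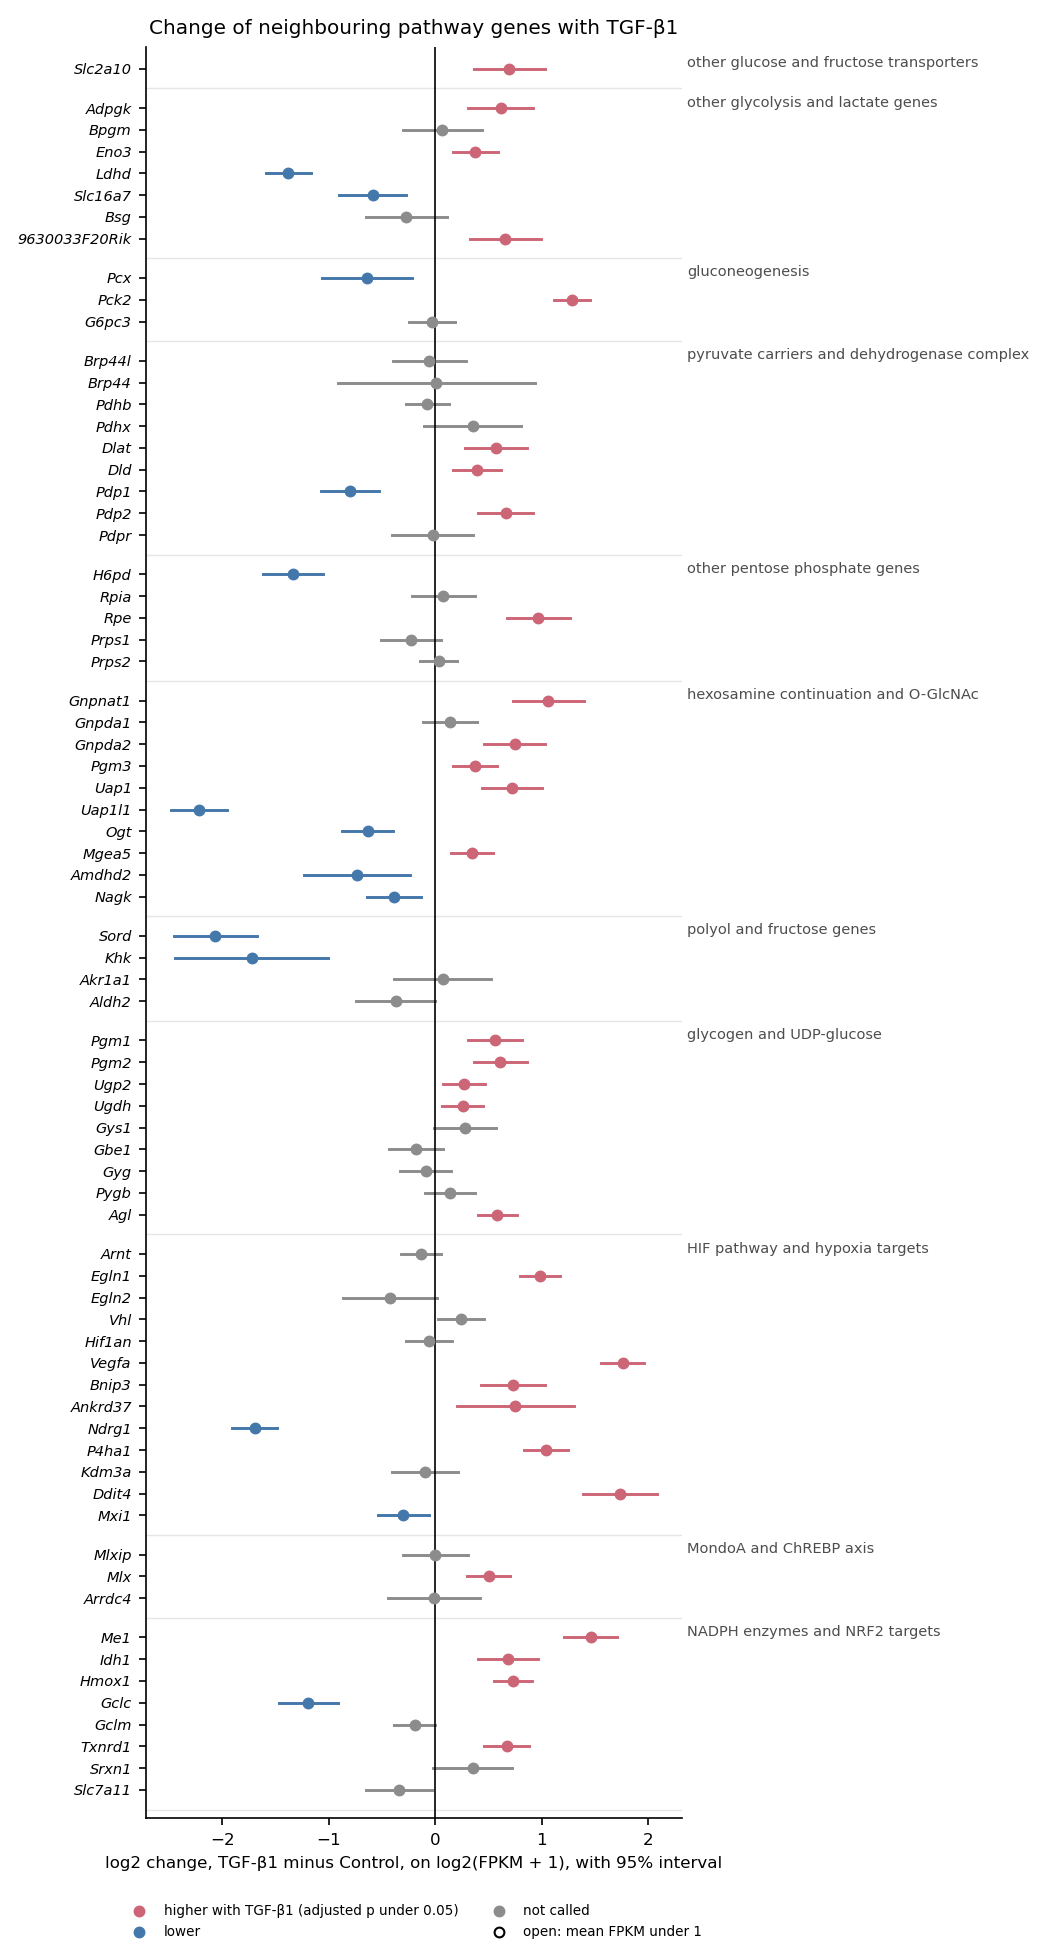
Log2 change, TGF-β1 minus Control, of the tested genes in each list of neighbouring pathways, with 1 point per gene coloured by call. Uap1l1 (−2.22) and Sord (−2.07) lie lowest and Vegfa (1.76) highest.

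Entry into the hexosamine branch is set by Gfpt1 and Gfpt2, which move an amide group onto fructose phosphate. Gfpt1, the constitutive form, measured 12.3, 11.3 and 11.2 FPKM in Control and 16.7, 19.3 and 18.9 FPKM in TGF-β1, a rise without overlap (log2 change 0.61, SE 0.09, adjusted p = 0.00206). Gfpt2 was under the filter on low values, at 0.0329, 0 and 0.0675 FPKM in Control and 0.730, 0.431 and 0.370 FPKM in TGF-β1, which stands for at most 1.94 fragments per Control library and at least 10.6 per TGF-β1 library. It was called up in the fit without that filter (0.54 on the log2(FPKM + 1) scale, adjusted p = 0.00894), and no fold is given for so few Control fragments. All 10 listed genes of the later hexosamine steps and of O-GlcNAc cycling were tested, of which 5 rose and 4 fell, the latter 2 without Control replicate 1, Control replicate 2 or TGF-β1 replicate 2. The largest rise was that of Gnpnat1, the acetyltransferase of the branch, from 12.3 ± 2.24 to 26.5 ± 1.86 FPKM (1.06, adjusted p = 0.00134). The largest fall was that of Uap1l1, a homologue of the UDP-sugar pyrophosphorylase, from 479.8 ± 23.5 to 102 ± 12.1 FPKM (−2.22, adjusted p = 3.50e-05). Ogt, the O-GlcNAc transferase, named after its values were seen, fell from 63.7 ± 2.51 to 40.8 ± 4.45 FPKM (−0.64).

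Akr1b3, aldose reductase, which starts the polyol pathway, measured 58.8, 60.6 and 54.5 FPKM in Control and 77.0, 83.5 and 73.7 FPKM in TGF-β1. It rose by 0.42 log2 units without overlap (SE 0.08, adjusted p = 0.00724; 0.0638 under the common sum), and it has 3 near-copies elsewhere in the genome. The next step of the pathway went the other way: Sord, sorbitol dehydrogenase, was at 16.4, 15.9 and 15.3 FPKM in Control and 3.47, 3.63 and 2.15 FPKM in TGF-β1 (log2 change −2.07, adjusted p = 1.84e-04). Of 4 tested polyol and fructose genes 2 fell, the other being Khk, ketohexokinase, from 10.0 ± 0.538 to 2.52 ± 1.32 FPKM, and none rose. Over all the lists of neighbouring genes 30 of 72 tested genes rose and 14 fell, beside 24.5% and 23.6% of all tested rows. Under the common sum 23 rose and 22 fell, where 2014 of all tested rows rose and 3956 fell.

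Among the regulators, Txnip binds thioredoxin and curbs glucose uptake, and its transcription is known to follow sugar phosphate levels. Txnip (chr3, 96361880 to 96365806) measured 137, 134 and 93.6 FPKM in Control and 73.8, 71.6 and 72.0 FPKM in TGF-β1. Every TGF-β1 library was lower (log2 change −0.72, SE 0.15, adjusted p = 0.0101), and with replicates 1 and 3 alone the call was lost (adjusted p = 0.0824). Hif1a, the oxygen-regulated subunit of HIF, which is controlled mainly at the protein level, measured 29.5, 24.3 and 25.5 FPKM in Control and 37.6, 41.9 and 37.6 FPKM in TGF-β1. It rose 1.48-fold with no overlap (log2 change 0.55, SE 0.10, adjusted p = 0.00507).

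Some members stood apart in TGF-β1 replicate 2. Against the mean of replicates 1 and 3 that library was offset by −0.72 log2 units in Slc16a3, −0.68 in Pfkl, −0.52 in Hk1, −0.38 in Slc2a8 and −0.33 in Slc16a1. Slc16a3 (58.7% GC) and Slc2a8 (61.4% GC) are rich in GC, and Pgls, the member richest in GC (65.4%), was offset by −0.31. Gpi1 (55.7% GC) and Pdk2 (56.9% GC) were offset by −0.23 and −0.13, and Aldoa (56.9% GC) and Gapdh (56.6% GC) by 0.06 and 0.17. At the low end, Hif1a (41.3% GC) was offset by 0.15, and Slc16a1 holds 42.9% GC. The part of GC content in the offset of a single gene was not tested. With replicates 1 and 3 alone, 17 members were called up and 5 down, and with the GC trend removed, 22 up and 7 down. Slc2a1, Hk2, Pgk1, Pgam1, Eno1, Ldha and Slc16a3 were called up and Ldhb and Eno2 down in every alternative tried.

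**Figure D5:**
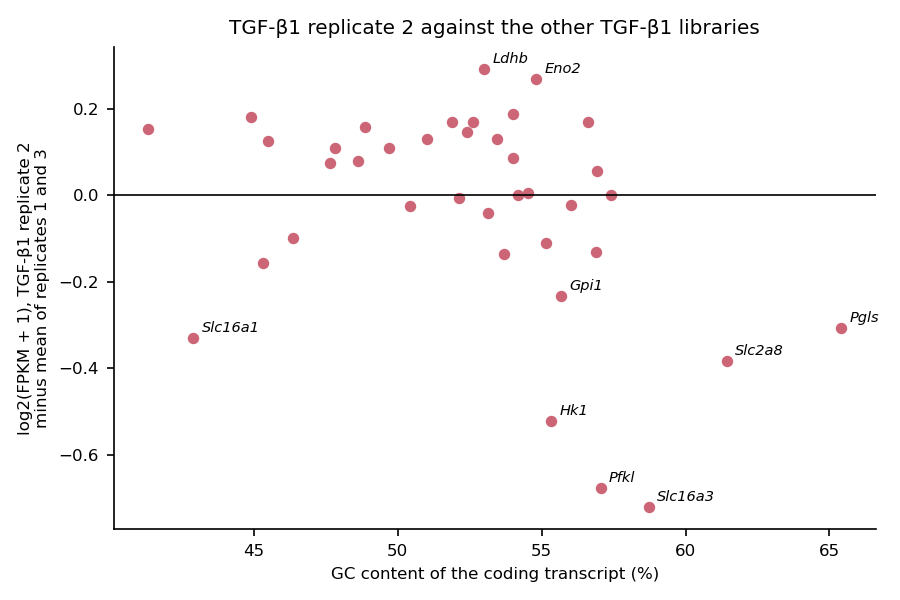
Log2(FPKM + 1) of TGF-β1 replicate 2 minus the mean of TGF-β1 replicates 1 and 3, against the GC content of the coding transcript in percent, with 1 point per member gene. Slc16a3 (−0.72), Pfkl (−0.68) and Hk1 (−0.52) lie lowest.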

How the data were processed

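RNA of 3 Control and 3 TGF-β1 libraries was sequenced. The authors deposited FPKM per row, made with Cufflinks from TopHat alignments to mm9 after a quality filter on reads (TopHat2 2.0.11 per the submitters' processing notes); whether strand was used and whether a row is a gene or a transcript are not given in the sources used here. Members were found by symbol. Members, lists and tests were chosen with earlier results of these data known. FPKM was tested as log2(FPKM + 1) with limma 3.58.1 (lmFit, eBayes with trend, two-sided) in R 4.3.3 on 11898 rows with a mean of at least 1 FPKM, with Benjamini-Hochberg adjustment over all of them; members under that mean came from the fit without the filter. Values are mean ± SD and folds are ratios of means. Isoform shares were compared by exact permutation. Depth was recovered from FPKM below 0.6, assuming fragments of 200 nt, with 99.4 to 99.9% of values within 0.1 of a whole fragment; the FPKM were not turned into counts. Coordinates are from GENCODE M1 (NCBIM37, the build of mm9), and 19699 rows matched it. Of the members, 16 overlap a gene on the opposite strand and 39 have several annotated transcripts. Near-copies of the coding transcript of each member were found with minimap2 2.31-r1302 (identity of at least 90% over at least 50% of that transcript). The script was tested on simulated data. Shown in full are the member with the highest mean of each role, those called with a change of at least 1 log2 unit, and the largest called change of each role in each direction; from each other list, the largest called change in each direction. Members outside these rules for which library values are given (Pfkl, Taldo1 and others) were chosen after their values were seen. Alternatives were scaling, pseudocount, filter, threshold, trend, replicate block, replicate 2 as a batch, and libraries left out. Not every marker of the lists is reported here.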

Additional observations from a re-analysis of the deposited data

How the results depend on the processing

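In the 18 alternatives, 14 of 19 members called up and 4 of 7 called down kept their call in each that gave them a value. At an adjusted p under 0.01, 3672 rows were called, 1727 of them down, with 4 members and 9 genes of the other lists down. Under the common sum, 22 genes of those lists were down. With a library left out, called rows ran from 4419 to 5446 (up 2273 to 2804, down 2146 to 2642), members up from 16 to 18 and down from 6 to 7, and other listed genes up from 26 to 29 and down from 10 to 16.

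The sign turned only in members that were not called: under the common sum Hk1 (−0.16), Pfkp (−0.054), G6pdx (−0.12) and Pgd (−0.082), under upper-quartile scaling Hk1 (−0.035), and for Pfkm under median-ratio scaling (0.016), GC removal (0.068) and replicates 1 and 3 alone (0.10), where Aldoc stood at −0.18. With a library left out Hk1 ran from −0.086 to 0.20, Pfkm from −0.087 to 0.12, Aldoc from −0.084 to 0.20, G6pdx from −0.039 to 0.17, and the difference in Pfkp share from −3.58 to 0.35 percentage points. The cause was not tested.

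Same-numbered libraries correlated by 0.0921, 0.232 and 0.0853 in their deviations from the group means, and different-numbered ones by −0.194 to 0.117. Control replicates 2 and 3 correlated best with the TGF-β1 library of their own number, and Control replicate 1 with TGF-β1 replicate 3 (0.117). Whether the numbers pair the samples is therefore not settled, and the main fit took no pairing. With the replicate block 5391 rows were called, and of the members Pgls gained a call (adjusted p = 0.0475) and Pfkfb4 lost it (0.0786).

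The depth of these libraries left Slc2a3 and the Control values of Gfpt2 under 6 fragments and Aldoc under 22, and 3 libraries a group cannot take a permutation p below 0.1.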

Other observations

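Beyond the sugar pathways themselves, 13 of 18 listed genes of the HIF pathway and its hypoxia targets were tested. Of these 6 were called up and 2 down, beside 24.5% and 23.6% of all tested rows. Vegfa, the endothelial growth factor, rose from 38.4 ± 2.75 to 133 ± 5.47 FPKM (n = 3 and 3, log2 change 1.76, adjusted p = 3.10e-05 with limma). Ddit4, an inhibitor of mTOR, rose from 17.6 ± 2.37 to 61.3 ± 8.91 FPKM, P4ha1, a collagen prolyl hydroxylase, from 66.5 ± 4.68 to 138 ± 7.84, and Egln1, the oxygen-sensing hydroxylase that marks HIF for decay, from 21.1 ± 1.34 to 42.6 ± 1.26; these 3 were named after their values were seen. Ndrg1, also known as a hypoxia-induced gene, went the other way, from 97.5 ± 4.40 to 29.4 ± 2.37 FPKM (−1.70, adjusted p = 4.19e-05). The other gene called down was Mxi1, whose call was lost with any library left out except Control replicate 3 (adjusted p 0.0798 to 0.145). Of the genes called up, Ankrd37 lost its call without Control replicate 2 or 3 or TGF-β1 replicate 1 or 2 (adjusted p 0.0947 to 0.104). Kdm3a was tested and not called, at 19.7 ± 1.15 and 18.5 ± 3.01 FPKM. Car9 and Adm were under the filter on low values and were not called in the fit without it (adjusted p = 0.208 and 0.129).

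NADPH can also be made outside the pentose phosphate pathway. Of 8 tested NADPH enzymes and NRF2 targets 4 rose and 1 fell. Me1, cytosolic malic enzyme, rose from 14.7 ± 1.15 to 42.2 ± 4.20 FPKM (log2 change 1.46, adjusted p = 1.26e-04), and Idh1, cytosolic isocitrate dehydrogenase, named after its values were seen, from 42.3 ± 5.90 to 68.3 ± 4.10 FPKM. Gclc, the glutathione synthesis enzyme, fell from 33.2 ± 3.69 to 13.9 ± 1.42 FPKM (−1.19). Of 9 tested genes of glycogen and UDP-glucose metabolism 5 rose and none fell in limma, the largest being Pgm2, a phosphoglucomutase, from 17.1 ± 0.884 to 26.7 ± 3.14 FPKM (0.61); 3 rose and 1 fell under the common sum, and 3 rose without Control replicate 2, TGF-β1 replicate 1 or TGF-β1 replicate 2. Of 3 tested genes of the glucose-sensing MondoA axis, whose known target is Txnip, Mlx rose from 19.6 ± 1.66 to 28.1 ± 0.450 FPKM (0.50), and Mlxip and the paralogue target Arrdc4 were not called, at 0.00 and −0.01.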
